A study of Mus musculus with 6 samples.

Results

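The clustered protocadherin genes of mouse chromosome 18 were taken by symbol from the RefSeq gene table. They are the genes named Pcdha, Pcdhb or Pcdhg that lie in the alpha, beta and gamma clusters, 58 of the 49997 genes of that table (14 alpha, 22 beta and 22 gamma, with the transcribed pseudogene Pcdhgb8 among the last). With 5 kb on each side, and in mm10 coordinates, the alpha cluster spans chr18:36925285-37193897, the beta cluster chr18:37259998-37526419 and the gamma cluster chr18:37656775-37846873. Within these spans 212 cytosine positions had at least 10 reads in all 6 libraries, of 232840 such positions on chromosomes 1 to 19 and X.

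Clustered protocadherins are cell-surface adhesion proteins of the cadherin superfamily, best known from neurons, where each cell uses its own combination of them and so gains a surface identity. In the alpha and gamma clusters a row of variable exons, each with its own promoter, is spliced to shared constant exons, whereas the beta genes each consist of a single coding exon. Most variable promoters are chosen at random in single neurons, the C-type genes (Pcdhac1, Pcdhac2, Pcdhgc3, Pcdhgc4 and Pcdhgc5) are used more uniformly, and methylation of a variable promoter is known to accompany its silence. The deposited files measure methylation only, so expression of these genes was not analysed here.

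All 6 libraries were labelled C57BL/6 and were made by reduced representation bisulfite sequencing (RRBS), in which the enzyme MspI enriches CpG-dense fragments before bisulfite conversion. WT 1 (title name OG3, passage 31) and WT 2 (AGH-2, passage 18) are wild-type androgenetic haploid embryonic stem cell lines, which carry 1 paternal set of chromosomes. DKO 1 (AGH-4, passage 32), DKO 2 (OG3, passage 31) and DKO 3 (AGH-2, passage 29) are such lines with deletions of the H19 DMR and the IG-DMR, control regions of paternally methylated imprinted domains. All 5 were kept in 2i medium, which contains kinase inhibitors, over feeders. The sixth library, RS, is round spermatids, the post-meiotic germ cells of the testis. The labels do not say that the lines come from separate embryos, and OG3 and AGH-2 each occur in both groups, so a p-value here reflects the scatter of these 5 samples, which may be partly technical. RS is 1 library without a replicate.

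Total read counts over cytosines ran from 197728785 to 255726544 in the lines and were 293920118 in RS. Promoters of genes at maternally methylated imprinted regions served as a check on the paternal labels. In 7 of 12 such genes with a measured promoter, no level in RS exceeded 0.333% and the highest in any line was 3.69%, at Zrsr1 in WT 2. Promoters of other genes averaged 0.475% in the lines and 1.16% in RS, so low levels at these promoters are only a weak check. No marker of feeder cells or of other testis cells can be read from these data, and their part in the levels was not tested.

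A position was called promoter from 500 bp before to 300 bp after a gene start, body from there to 2700 bp after it, which is where most of a variable exon lies, and rest otherwise. Coverage of the family was uneven. A promoter was measured in 10 genes, a body in 25 and either in 29, and the other 29 genes (9 alpha, 17 beta and 3 gamma) had no measured promoter or body position. The alpha promoters measured were those of Pcdhac1 (17 positions) and Pcdhac2 (2 positions), both C-type, and no beta promoter was measured. The gamma cluster gave 128 positions from 19 of its 22 genes, with Pcdhga6, Pcdhga11 and Pcdhgb6 unmeasured, the alpha cluster 66 positions and the beta cluster 18. The median depth was 348 reads. The gene models of Gm37013, Gm38666 and Gm38667 run through the same region and are not counted as members.

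Most positions of the family were below 10% in all 6 libraries. Of the 212 positions, 64 (30.2%) stood at 0% in every library, 119 (56.1%) below 1% and 139 (65.6%) below 10%. Over all measured positions the shares were 32%, 63.1% and 66.8%, so the family was no less methylated by these counts than the measured genome. No position reached 10% in all 5 lines. The mean level over the 212 positions was 4.91% and 2.43% in WT 1 and WT 2, 1.10%, 4.55% and 2.15% in DKO 1, DKO 2 and DKO 3, and 4.52% in RS. The line mean was 3.03% ± 1.64 (SD, n = 5), and RS lay inside the range of the lines. Over all 232840 positions the lines averaged 5.92% ± 1.66 (SD, n = 5) and RS stood at 22.4%, above every line. The gap between spermatid and lines seen across the measured genome was thus not seen in the average of the protocadherin positions. It was also smaller near the starts of other genes. Their promoters averaged 0.475% in the lines and 1.16% in RS, and the stretch of the body class 1.97% and 6.66%.

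Few positions of the family were methylated in spermatids. In RS, 158 of the 212 positions stood at 0%, 195 (92.0%) below 10% and 6 (2.83%) above 90%, with 11 (5.19%) in between. Over all measured positions 5.41% lay in between, 74.8% below 10% and 19.7% above 90% in RS. Fewer of the protocadherin positions were therefore fully methylated in spermatids than of positions in general, although measured positions within a gene share fragments and are not independent. Most members are promoter or body positions, and those classes were seldom fully methylated in other genes either. Above 90% in RS were 2.78% of member body positions, against 5.37% in other genes, and 0% of member promoter positions, against 0.890%.

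Promoters were the least methylated class in RS. Over the 52 promoter positions the mean level was 0.0231% in RS, against 1.19%, 1.15%, 0.236%, 1.89% and 1.81% in WT 1, WT 2, DKO 1, DKO 2 and DKO 3. RS was below each of the 5 lines, whose mean was 1.25% ± 0.664 (SD, n = 5). Summed over promoter positions, 24 of 75998 spermatid read counts were methylated, or 0.0316% (95% Wilson interval 0.0212% to 0.0470%). A read over several positions counts several times in this sum, so the interval is too narrow even for counting error. Promoters of other genes, with 74612 positions, stood at 0.475% in the lines and 1.16% in RS. With at least 50 reads in every library the line mean was 0.396% both for the protocadherin promoters, on 35 positions, and for promoters of other genes, so the difference in the lines depends on the minimum depth. RS then held 0.0344% and 0.914%.

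Bodies held more methylation than promoters in every library. The 144 body positions averaged 5.29%, 2.40%, 1.31%, 5.04% and 2.13% in the lines in the same order, with a mean of 3.23% ± 1.81 (SD, n = 5), and 4.65% in RS. The corresponding stretch of other genes stood at 1.97% in the lines and 6.66% in RS. The 16 positions in neither class averaged 6.93% in the lines and 17.9% in RS.

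**Figure D1:**
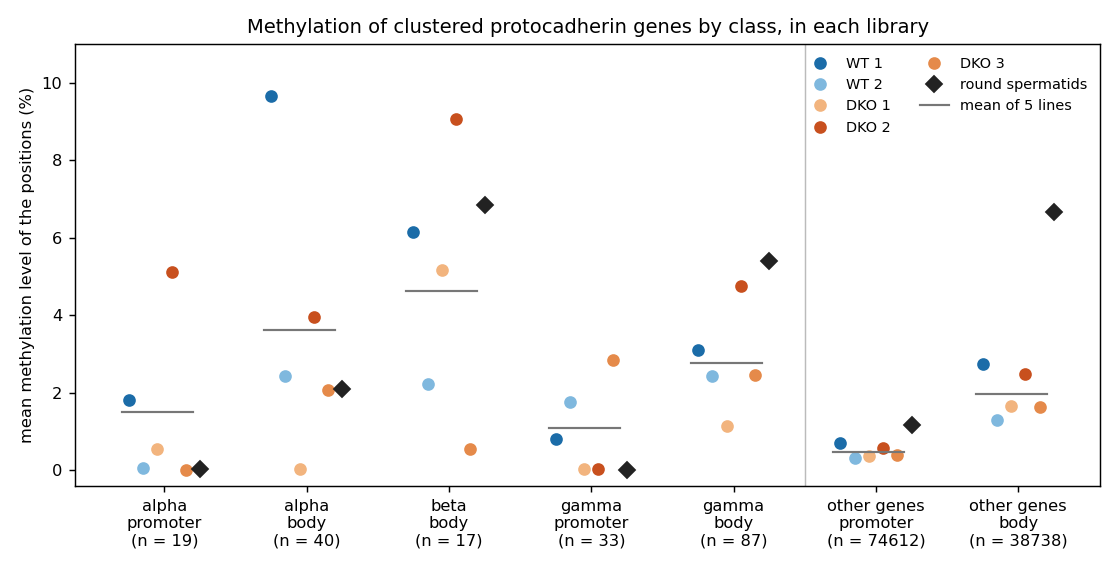
Mean methylation level (%) of the measured positions in each class of the alpha, beta and gamma clusters and of other genes, one point per library, with the mean of the 5 lines as a horizontal bar. Both promoter classes of the clusters sit near 0 in round spermatids, while bodies differ between lines, most widely in the alpha cluster, where WT 1 stands at 9.65% and DKO 1 at 0.0380%.

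The highest library was WT 1 in the alpha cluster and RS in the beta and gamma clusters. In the alpha cluster the level was 9.21% and 2.97% in the WT lines, 0.413%, 5.52% and 2.01% in the DKO lines and 2.59% in RS. DKO 1 was the lowest, with RS inside the lines. In the beta cluster, on 18 positions, the lines held 7.21%, 2.09%, 5.84%, 9.28% and 0.785% and RS held 11.998%, above all of them. In the gamma cluster the lines held 2.37%, 2.19%, 0.783%, 3.38% and 2.41% and RS 4.46%, again above all lines. These orders depend on the setting. At 20 or more reads the line mean of beta fell from 5.04% to 1.79%. With reads pooled over positions RS stood at 3.74% in beta, against a line mean of 1.80%, but at 1.68% in gamma, below the line mean of 2.31%. Over all positions the pooled values were 2.08% in RS and 2.55% in the lines, and in bodies 2.16% and 3.13%, so RS was below the line mean there too.

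On positions covered in all 6 libraries the order of spermatids and lines was opposite between the gamma subfamilies, but only through the gene Pcdhga7. The Pcdhga genes, on 64 promoter and body positions, averaged 2.19% ± 1.27 (SD, n = 5) in the lines and 6.46% in RS. The Pcdhgb genes, on 18 positions, averaged 4.498% ± 4.49 (SD, n = 5) in the lines and 0.0868% in RS. Among positions covered in all 6 libraries, the spermatid levels above 90% in the Pcdhga exons were those of 4 neighbouring positions of Pcdhga7, described next, and the difference between the subfamilies was not tested. No other Pcdhga promoter or body averaged more than 1.98% in RS, the level of the Pcdhga3 body, where the lines held 1.60%. The higher spermatid average of the Pcdhga genes thus rests on those 4 positions and is not a trait of the subfamily.

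Spermatids exceeded the lines at few places. A position was called higher in RS when it exceeded the mean of the lines by at least 25 percentage points and lay above all of them. That held at 8 of 212 positions (3.77%), against a background of 21.2% of all measured positions. The same size of difference against single lines was met at 8 positions against WT 1 (background 20.9%), 8 against WT 2 (background 22.8%), 9 against DKO 1 (background 22.3%), 9 against DKO 2 (background 21.6%) and 9 against DKO 3 (background 22%). The share of members higher in spermatids lay well below the background in each of these comparisons, and no p-value is given because RS is a single library. That background holds all classes of position, whereas most members are promoter or body positions. The share of such calls in those classes of other genes was not computed, so the shortage cannot be called particular to the family.

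Neighbouring positions of Pcdhga7, a variable-exon gene of the gamma cluster, made up 4 of the 8. At 1452, 1473, 1494 and 1499 bp after its start all 241 spermatid reads at each position were methylated (964 of 964 in sum, 95% Wilson interval 99.6% to 100%). Averaged over these 4 positions the lines held 15.2%, 3.34%, 0.0919%, 7.48% and 17.2%, in the order WT 1, WT 2, DKO 1, DKO 2 and DKO 3. Every line was far below RS, and they spread from near 0 in DKO 1 to 39.3% at the last position in DKO 3. The 4 positions are close together and have equal spermatid depth, so they share reads. The sum therefore counts the same reads several times, and its interval is too narrow.

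The other 4 positions were single sites. At 1847 bp after the start of Pcdhac1, a C-type alpha gene, RS stood at 60.7% on 61 reads, WT 2 at 40% on 140 reads and the other 4 lines at 0%, with WT 1 covered by only 11 reads. In the body of Pcdhb17, a single-exon gene named after its values were seen, RS held 68.9%, WT 1 20% on 40 reads, DKO 2 1.92% and the others 0%. Between Pcdhb8 and Pcdhb9, at chr18:37386680, RS stood at 99.6% and the lines at 25.1%, 0%, 17.2%, 12.8% and 4.85%. At 8309 bp after the start of Pcdhga5, beyond its body class, RS stood at 100% and the lines at 6.31%, 6.49%, 0%, 18.95% and 0%. None of the 8 positions lies in a promoter.

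Spermatids were lower than single lines at scattered positions. A deficit of at least 25 points was met at 11 positions against WT 1 (background 2.68%), 9 against WT 2 (background 1.16%), 2 against DKO 1 (background 1.53%), 16 against DKO 2 (background 2.27%) and 2 against DKO 3 (background 1.61%). These counts are 5.19%, 4.25%, 0.943%, 7.55% and 0.943% of the 212 positions. Shares lay above the background for WT 1, WT 2 and DKO 2 and below it for both other lines. Against the mean of the lines, and below all of them, the count was 0 of 212 (background 0.333%), since no position was raised in every line.

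**Figure D2:**
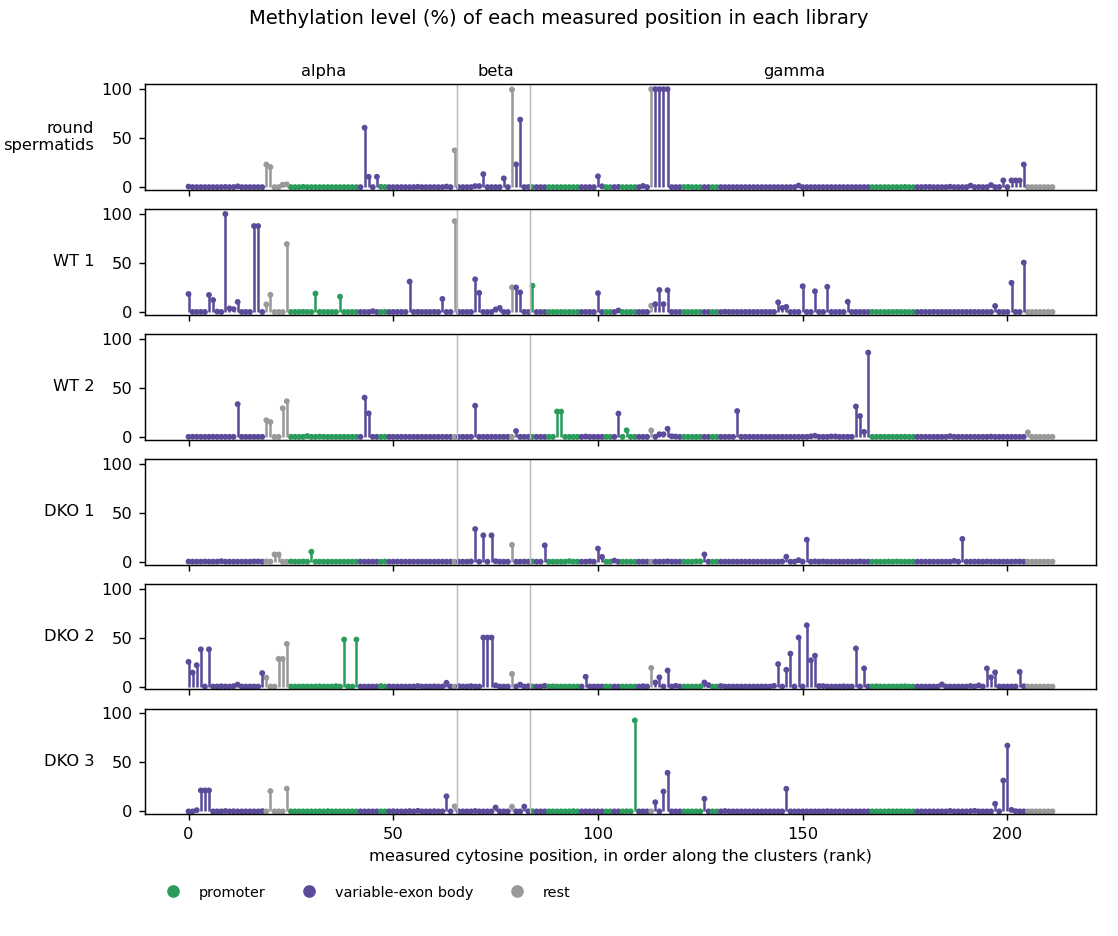
Methylation level (%) of each of the 212 positions, in order along the 3 clusters, with one panel per library and colours for promoter, body and rest. Most positions lie at 0 in every panel, and the tallest spermatid positions are mostly short in the lines. Exceptions include chr18:37185870, with RS at 37.5% and WT 1 at 92.7%, and chr18:37091983, with RS at 60.7% and WT 2 at 40%. The tall positions of WT 1, WT 2, DKO 2 and DKO 3 mostly stand at different places.

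Where spermatids were low and a line was methylated, it was mostly 1 line alone, in the family as in other genes. Among the 195 positions below 10% in RS, 56 (28.7%, in 20 genes) reached 10% in at least 1 line, against a background of 10.7%. Exactly 1 line reached it at 44 positions (22.6%, background 5.89%), and at least 3 lines did at 3 positions (1.54%, background 2.32%). Of the member positions reached by a line, 1 line was alone at 34 of 44 in bodies and 9 of 9 in promoters. In other genes it was alone at 1845 of 2759 and 1483 of 1983, so methylation in a single line is not particular to the clusters. The count was 139 positions with no such line, 44 with 1, 9 with 2, 2 with 3, 1 with 4 and 0 with all 5. Positions within 300 bp of one another are not independent, and when such neighbours were joined, 22 of 39 groups (56.4%) held a position of this kind, against 40.1% over all chromosomes. Within a line, the 72 values at 10% or more formed 45 runs of positions within 300 bp, 26 of a single position and the longest of 5, in DKO 2.

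WT 1 and DKO 2 contributed most of these positions. WT 1 was at 10% or more at 20 of the 195 positions (10.3%), WT 2 at 11 (5.64%), DKO 1 at 6 (3.08%), DKO 2 at 25 (12.8%) and DKO 3 at 10 (5.13%). Over all positions below 10% in RS the shares were 5.43%, 2.74%, 3.04%, 4.98% and 2.88%, so the same lines were highest there, and DKO 1 alone was near its background within the clusters. Without WT 1 the 28.7% became 21.5%, against a background of 8.79%, and without DKO 2 it became 21.0%, against 9.11%. The titles of these lines share the name OG3, yet they had 4 positions in common, 20% of those of WT 1 and 16% of those of DKO 2. Over all chromosomes that pair shared 42.2% and 46.0%. WT 2 and DKO 3, which share the name AGH-2, had 1 position in common, 9.09% and 10% of theirs. The WT lines had 15.5 ± 6.36 such positions (SD, n = 2) and the DKO lines 13.7 ± 10.02 (SD, n = 3) (two-sided exact permutation p = 0.9).

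Read depth did not separate these values from the rest by much. The 72 line values at 10% or more had a median of 302 reads, and the 903 below 10% a median of 348. Of 18 pairs of such values within 40 bp of each other in a line, 8 had levels equal within 0.5 points. The part of read depth and of shared reads in these values was not tested.

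Promoters and bodies both exceeded the same windows of other genes. Of the 52 promoter positions, 9 (17.3%) reached 10% in a line, each in exactly 1, against 2.7% of 73516 positions in promoters of other genes. With at least 50 reads in every library this became 3 of 35 (8.57%), against 2.61%. Of the 132 body positions below 10% in RS, 44 (33.3%) did so, against 7.76% in other genes, and with 50 reads 35 of 114 (30.7%), against 7.25%. The body share was thus little changed by depth, while the promoter share fell. The 2 body sets are not matched for distance from the start. Beyond 900 bp lay 91 of the 132 member positions, against 8842 of 35535 in other genes. In other genes 15.5% of those far positions reached 10% in a line, against 5.2% of nearer ones, so 33.3% against 7.76% overstates the gap. Shares for each stretch are given next.

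**Figure D3:**
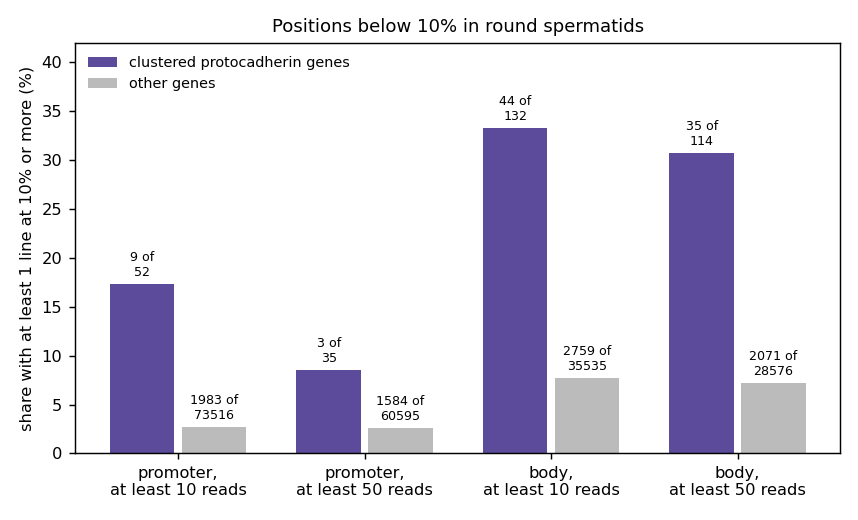
Share (%) of the positions below 10% in round spermatids that reached 10% in at least 1 line, for promoters and bodies of the clustered protocadherin genes and of other genes, at 2 minimum depths; numbers over the bars are counts of positions. The protocadherin bars stand above those of other genes in all 4 pairs, at 33.3% against 7.76% for bodies and 17.3% against 2.7% for promoters at 10 reads. The body bars are not matched for distance from the gene start.

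Within the variable exon the far part held most of it. Beyond the promoter and up to 900 bp after the start, 5 of 41 positions (12.2%) below 10% in RS reached 10% in a line, against 5.2% for the same stretch of other genes. Beyond 900 and up to 2700 bp, 39 of 91 (42.9%) did, against 15.5%. The mean level of the lines was 1.02% ± 0.706 (SD, n = 5) in the near stretch, on 41 positions of 12 genes, and 4.11% ± 2.47 (SD, n = 5) in the far one, on 103 positions of 19 genes. By library the far stretch held 6.57%, 3.05%, 1.26%, 6.85% and 2.83%, above the near stretch in every line but DKO 1, which held 1.42% in the near stretch. RS held 0.307% near the start and 6.39% farther in. Different genes supply the 2 stretches, so the contrast also compares genes.

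**Figure D4:**
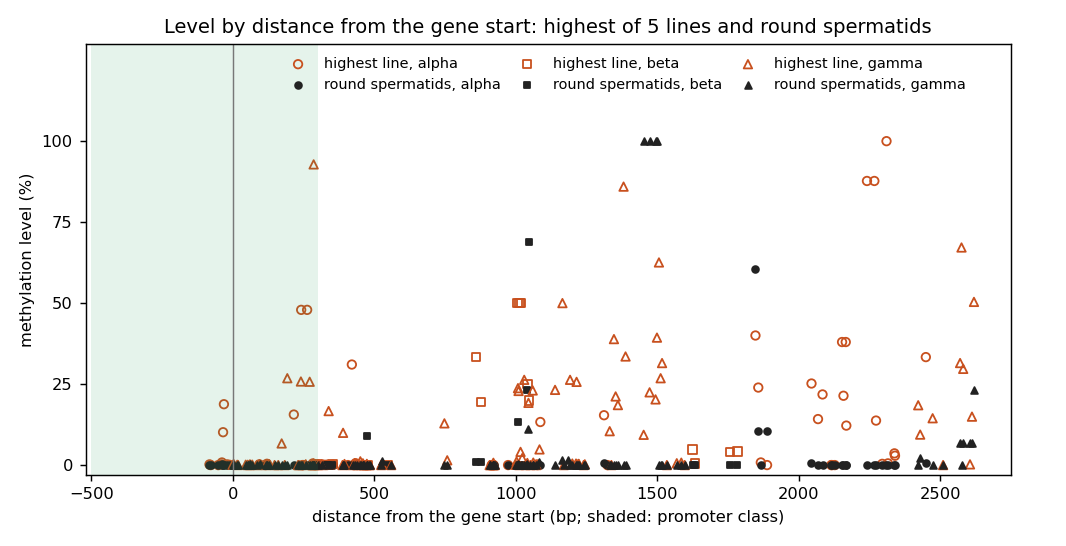
Methylation level (%) of each promoter and body position against its distance from the gene start (bp), with open symbols for the highest of the 5 lines and filled ones for round spermatids, shaped by cluster. Within the shaded promoter class every spermatid point lies near 0, and line values above 10% become frequent beyond about 900 bp.

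Among the C-type genes, Pcdhac1 was the most uneven. Its 17 promoter positions averaged 2.04% and 0.0635% in the WT lines, 0.624%, 5.68% and 0.0195% in the DKO lines and 0.0151% in RS. The DKO 2 level came from positions 242 and 263 bp after the start, both at 47.9% on 48 reads, and at 0% in the other lines and RS. WT 1 held 18.8% on 1602 reads at 31 bp before the start, where all other libraries held 0%, and DKO 1 held 10.1% on 2090 reads at 34 bp before it. These adjoining positions are covered by the same reads and were methylated in different lines. With at least 50 reads the promoter line mean fell from 1.68% to 0.572%. Its body averaged 12.8% in WT 2 and 16.3% in RS, and under 0.2% in the other lines. The line mean of the body fell from 2.59% to 1.24% at 20 reads.

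On the shared positions Pcdhac2 was low in most libraries. Its promoter did not exceed 0.246% in a line, and its body averaged 0.826% ± 1.17 (SD, n = 5), with 31.04% on 1540 reads at 421 bp after the start in WT 1 alone. Body positions that another line did not cover held 54.7% in WT 1 at 936 bp, 36.4% in WT 2 at 937 bp and 100% in DKO 3 at 1103 bp. At the far end of the alpha cluster, 42192 bp after the start of Pcdhac2, WT 1 stood at 92.7% on 41 reads, RS at 37.5%, DKO 3 at 5.15% and the other lines at 0%.

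Pcdhgc3 was mostly near 0. Its promoter averaged 0.0392% ± 0.0283 (SD, n = 5) in the lines and 0.0236% in RS, and its body reached 10% at 1 position, 23.2% on 56 reads in DKO 1. Pcdhgc4 had 3 body positions, at 0.127% in the lines and 0.0404% in RS, while 3 more, which most other lines did not cover, held 86.1%, 100% and 100% in WT 1. Pcdhgc5, measured from 2422 to 2619 bp after its start, was the exception, with body means of 8.62%, 0.0246%, 0.0420%, 5.77% and 10.8% in the lines and 5.26% in RS. WT 1, DKO 2 and DKO 3 were raised and WT 2 and DKO 1 were not. DKO 3 held 67.2% on 926 reads at 2575 bp, between positions with 31.5% and 1.51% in that line a few bases away. WT 1 held 0% at that position and 50.4% at 2619 bp, where RS held 23.1%.

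Across both clusters the C-type bodies averaged 1.72% ± 0.944 (SD, n = 5) in the lines and the other variable exons 3.85% ± 2.55 (SD, n = 5). Their spread over lines overlapped, and promoters gave 0.974% ± 1.36 and 1.64% ± 1.81 (SD, n = 5 each). In RS both promoter groups stood near 0, at 0.0311% and 0.0122%.

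Among the other variable exons of the alpha cluster, Pcdha2 and Pcdha4 were methylated mainly in WT 1. The body of Pcdha2 averaged 29.2% and 8.33% in the WT lines, 0%, 0.601% and 0.135% in the DKO lines and 0.248% in RS. At 2310 bp after its start all 111 reads of WT 1 were methylated, while the other libraries held at most 0.375%. The body of Pcdha4 averaged 29.2% in WT 1, 2.29% in DKO 2, under 0.1% in the other lines and 0% in RS. Its value in WT 1 came from positions 2241 and 2267 bp after the start, both at 87.7%, and a position 6 bp farther, with as many reads, stood at 0%. Pcdha1, named after its values were seen, was raised in DKO 2 (15.3%), DKO 3 (7.27%) and WT 1 (5.37%) and stood under 0.1% in WT 2, DKO 1 and RS. One position 53829 bp after the start of Pcdha12, between variable exons, came closest to a shared gain, with 69.3%, 36.3%, 0%, 43.5% and 23.2% in the lines and 2.78% in RS.

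In the beta cluster Pcdhb2 had the highest line mean. Its body averaged 8.51%, 4.54%, 12.5%, 21.6% and 0.624% in the lines and 2.19% in RS. At 860 bp after its start WT 1, WT 2 and DKO 1 held 33.3%, 31.7% and 33.3% and both other lines under 0.4%, on 16 to 260 reads. Several of its values rest on 10 to 34 reads, and with at least 20 reads in every library the line mean fell from 9.56% to 2.13%. Pcdhb1, on 4 body positions, stood at 0.0467% ± 0.0763 (SD, n = 5) in the lines and at 0 of 2621 reads in RS, summed over positions. That allows up to 0.114%, a limit that is too low where a read covers several positions and counts several times. Positions of Pcdhb1 that not every line covered were raised, at 99.8% in WT 1 at 225 and 234 bp after the start, in the promoter, where RS held 0.112% and 0.0896%. At 893 bp WT 1 held 54.2% and WT 2 52.6%.

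In the gamma cluster several promoters were methylated in 1 line each. At 286 bp after the start of Pcdhgb2, DKO 3 held 92.8% on 223 reads and all other libraries 0%, and the promoter mean of the gene was 23.2% in DKO 3 and at most 1.67% elsewhere. This position has under 50 reads in WT 2, and without it the line mean fell from 4.98% to 0.456%. The promoter of Pcdhga2 averaged 8.59% in WT 2, from 2 positions at 25.8% and 25.7%, and under 0.1% elsewhere. These have under 50 reads in WT 1, and at 50 reads the line mean fell from 1.74% to 0.0211%. The single promoter position of Pcdhga1 stood at 26.8% in WT 1, on 455 reads, and under 0.3% elsewhere. Pcdhga8, with 5 promoter positions, stood at 0.0272% ± 0.0453 (SD, n = 5) in the lines. Promoter methylation above 10% was thus found in 4 of the 10 genes with a measured promoter, Pcdhac1, Pcdhga1, Pcdhga2 and Pcdhgb2. That is 40% of these genes, against 18% of 8593 other genes with a measured promoter, whose median number of positions was 8 rather than 3.

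The pseudogene Pcdhgb8 had the widest spread of the gamma bodies, at 9.49%, 0.314%, 4.86%, 34.2% and 0% in the lines and 0.312% in RS. DKO 2 held from 26.8% to 62.6% at 4 of its 5 positions and 0% at the fifth, where WT 1 held 26.3%. Pcdhga12, named after its values were seen, averaged 11.1% in WT 2, with 86.0% on 57 reads at 1381 bp, and 0% in RS. Pcdhga5 and Pcdhgb4 were low, with body means of 0.0229% and 0.106% in the lines. Of the 29 measured genes, 21 (72.4%) had a promoter or body position at 10% or more in a line, against 33.1% of 11058 other genes. The 8 without were Pcdhb1, Pcdhb3, Pcdhb20, Pcdhga5, Pcdhga8, Pcdhgb1, Pcdhgb4 and Pcdhgc4. On positions with 10 reads in the line itself, Pcdhb1, Pcdhb3 and Pcdhgc4 also reached it, Pcdhb3 with 100% in WT 1 at 457 bp after its start, and the other 5 did not. By that rule more genes were covered, and 31 of 55 reached it, a lower share than 21 of 29. The share of other genes by that rule was not computed.

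The DKO lines were next set against the WT lines, the comparison that shows whether the deletions of the H19 DMR and IG-DMR go with a different methylation of these clusters. Over all 212 positions DKO minus WT was -1.07 points, from 3.67% ± 1.76 (SD, n = 2) in WT to 2.60% ± 1.77 (SD, n = 3) in DKO (two-sided exact permutation p = 0.5). By cluster the difference was -3.45 points in alpha (exact p = 0.4), 0.65 in beta (exact p = 0.9) and -0.0901 in gamma (exact p = 1). It was 0.145 points in promoters (exact p = 1) and -1.02 in bodies (exact p = 0.5). The groups overlapped in each of these, and with 2 against 3 lines the test cannot give a p under 0.1. Without WT 1 the difference over all positions turned to 0.171 points and that of alpha shrank to -0.328, while without WT 2 alpha stood at -6.56.

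No position differed between the groups by at least 25 points without overlap. That count was 0 of 212 for DKO higher (background 0.922%) and 0 of 212 for DKO lower (background 1.36%). In 500 bp tiles, the quasi-likelihood test of edgeR on methylated and unmethylated counts called none of the 30 protocadherin tiles tested, at an adjusted p under 0.05, and none of 25575 tiles in all (0% higher and 0% lower). At an unadjusted p under 0.05 edgeR counted 2 of the 30 tiles, against 2.21% of all tiles, and limma also called 0 tiles after adjustment with 2 of 30 before it. The lower of those edgeR p-values belonged to the tile of Pcdha2 (unadjusted p = 0.0172), at 16.5% and 6.999% in the WT lines and 0%, 0.319% and 0.163% in the DKO lines. Lines within a group differed so widely in these tiles that 0 calls does not show the groups to be alike.

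Other genes were read by the same rule. Of 12 protocadherin genes outside the clusters, 5 had a measured promoter, none above 0.0721% in RS or 0.151% in any line. Positions elsewhere in 10 of these genes held more, with line means from 0.401% at Pcdh10 to 30% at Pcdh9, the last on 2 positions. Pcdh11x held 16.1% in the lines and 27.7% in RS, Pcdh12, on 4 positions, 10.8% and 91.9%, and Pcdh1 6.44% and 9.92%. No start was listed for Pcdh1, Pcdh11x and Pcdh12, so their values take all positions of the gene, any near its start included. Of 14 regulators of the clusters or of DNA methylation, 7 had a measured promoter, with line means of at most 0.230%. In RS, 1 of the 7 exceeded 10%, Dnmt3l, a cofactor of the de novo methyltransferases, at 100% on its single measured position. Ctcf, which binds the variable promoters, stood at 0.0119% in the lines and 0.00815% in RS.

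More of the family became visible when positions needed 10 reads in RS only. That gave 408 positions in 41 of the 58 genes, with 372 (91.2%) below 10% and 17 (4.17%) above 90%. Over all positions covered in RS the shares were 67.8% and 28.5%. Promoter positions were low in each cluster, averaging 0.0281% in alpha, 0.0402% in beta and 0.0196% in gamma. Methylated body positions were added. Pcdhga2 held 100% at 3 positions, on 26 reads each, and Pcdhb16, a beta gene named after its values were seen, 100% on 30 reads. Pcdhga10 and Pcdhb12, named in the same way, held 92.1% on 38 reads and 70.7% on 41 reads at their highest positions.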

How the data were processed

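RRBS libraries of 2 WT lines, 3 DKO lines and 1 round spermatid sample were used. Per the submitters' processing notes the authors used Bismark 0.12.2 and mm10. Not given in the sources used here are trimming, strand, cytosine context and the handling of duplicates and of reads that map to several places, the last of which matters for exons with close paralogs. The deposited files give read counts, methylated and unmethylated, and the deposited level as a fraction. The fraction equalled methylated over all reads within 1e-09.

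Levels are means of position levels in percent, at 10 or more reads in all 6 libraries. Reads were amplified by PCR, and the labels name no molecular identifiers. Intervals, and limits for a count of 0 (3 reads), therefore cover counting error at most. They sum reads over positions, so a read that covers several positions counts several times and they are too narrow. Gene starts come from RefSeq GRCm38.p6, the assembly of mm10. The table gives no strand for the members: alpha and gamma genes share their right-hand ends, so their variable exons lie on the left, and the orientation of the beta genes is from general knowledge. Starts of other genes, with strand, come from RefSeq promoters of chromosomes 1 to 17, 19 and X. Background counts over all positions include the members.

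DKO and WT lines were compared by two-sided exact permutation over the lines (10 splits) and with edgeR 4.0.16 (quasi-likelihood test, R 4.3.3) on 500 bp tiles with at least 3 positions, a term per library, a common dispersion and Benjamini-Hochberg adjustment over all tiles, with limma 3.58.1 as an alternative. The edgeR code was tested on simulated data with a narrow spread between libraries. At a wider spread, near that of these libraries, it recovered none of the changed tiles, so a count of 0 does not show that the groups are alike. Spermatid calls are by size alone. Other alternatives changed the minimum depth, the pooling of reads, the promoter width, the size of a call and the lines included.

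Named genes are the C-type genes, the 2 highest and 2 lowest of each cluster and class in the lines and in RS among genes with at least 3 positions, and the 3 promoters and 3 bodies with the widest spread over the lines. The members and lists were chosen with earlier results of these data known. Analyses used Python 3.11.15 with scipy 1.17.1. No sequences are printed.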

Additional observations from a re-analysis of the deposited data

How the results depend on the processing

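Against 1 SD over the lines, 20 main values and 1 gene value moved under other settings and 16 main values reversed. That spread is wide: of 207 line means of single genes under alternatives, 32 differed by over 1.5 times, 17 of them on leaving out a line, and of 102 levels of clusters and classes 12 did. Every reversal was of DKO minus WT, where no difference passed a test. In beta it was -0.918 points at 20 and at 50 reads. In gamma it was 0.140 at 20 reads, 0.0477 at 50 and 0.241 with pooled reads. In promoters it was -0.632 at 50 reads and -0.259 with pooled reads, and in bodies 0.0130 with pooled reads. Leaving out 1 line at a time gave -2.31 to 0.171 points over all positions, -6.56 to -0.328 in alpha, -1.91 to 3.21 in beta, -0.686 to 0.615 in gamma, -0.145 to 0.683 in promoters and -2.46 to 0.421 in bodies, and the reversals came without WT 1 (all positions, gamma at 0.00134, bodies), WT 2 (beta), DKO 1 (gamma), DKO 2 (beta at -1.34, promoters) and DKO 3 (promoters at -0.104). It gave 0 to 1 positions where RS was below the lines (1 without DKO 1), 24 to 38 deficits against single lines (24 without DKO 2) and 21.0% to 27.2% of spermatid-low positions with a raised line (21.0% without DKO 2, background 9.11%, and 21.5% without WT 1, background 8.79%).

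At 50 reads the spermatid level of gamma was 5.58%, the line mean of promoters 0.396% and the deficits against single lines 20 in sum rather than 40. Pooled reads gave spermatid levels of 2.08% over all positions, 3.74% in beta, 1.68% in gamma and 2.16% in bodies, against line means of 2.55%, 1.80%, 2.31% and 3.13%. The beta line mean was 1.79% at 20 and at 50 reads. Excesses over single lines, 43 in sum, were 73 at 10 points and 73 on positions covered in RS and 1 line, and deficits were 75 at 10 points and 11 at 50. By its own coverage RS held 8.06% in beta and 6.03% in gamma. The share of spermatid-low positions with a raised line was 16.9% at 25% (background 6.93%), 5.64% at 50% (background 3.27%) and 56.4% over groups within 300 bp. These last, and the coverage alternatives, were chosen after seeing the data. The cause was not tested in any case.

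The replicate block by shared line name (OG3, AGH-2) used 4 lines. edgeR called 0 protocadherin tiles with it, and 2 tiles higher and 1 lower over all chromosomes. Deviations of same-named lines from their group mean correlated at 0.153 and 0.0834 over 2 pairs, and those of the differently named WT 2 and DKO 1 at 0.0699. With 2 WT lines these deviations mirror each other, so each value returns with the opposite sign for the other WT line. The pairs are therefore not independent, and no conclusion on shared origin is drawn.

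Few positions per gene, 1 spermatid library and 29 unmeasured genes limit all statements. Levels on fewer than 50 reads are the least certain. The promoter level in the lines depends on positions with fewer than 50 reads in some library. The raised line itself often had more there, such as 223 reads in DKO 3 at Pcdhgb2 and 345 in WT 2 at Pcdhga2. At Pcdhac1 DKO 2 had 48.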

Other observations

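Outside the 3 spans, in the gap between the beta and gamma clusters, 7 further positions were measured. At chr18:37544347 RS held 85.5% and the lines 20.1%, 9.70%, 34.7%, 28.0% and 4.81%, and at chr18:37544392 RS held 87.3% and the lines at most 2.51%. The other 5, just before the gamma cluster at chr18:37655533-37655668, stood below 0.4% in every library. By their own coverage WT 1 had 2 of 85 promoter positions above 90%, both at Pcdhb1, the only beta gene with a covered promoter in that line, and DKO 3 had 1 of 95.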
